A study of Mus musculus with 38 samples.

Results

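Eef1a1, Eef1a2, Eef1b2, Eef1d, Eef1g, Eef2 and Eef2k encode the factors that drive cytosolic translation elongation and the kinase that acts on one of them. These 7 genes were chosen by name from the 22443 protein-coding genes in the deposited tables, with earlier results of these data known. Counts of members set beside a share of all genes therefore describe the list and do not test it. All 7 passed the filter on low counts in every comparison. Their footprints, the mRNA fragments that ribosomes shield from nuclease, had been sequenced by PL-Ribo-seq (proximity-labeling ribosome profiling) in primary cortical neurons cultured from pooled CD-1 mouse embryos. The neurons carried a doxycycline-inducible lentiviral biotin ligase, either TurboID-PSD95, which is drawn to dendrites by elements of PSD95, or Pan-TurboID, without such elements. From each culture came an input (total footprints) and a streptavidin pulldown (footprints of ribosome complexes close to the ligase). Groups of 3 replicates covered resting neurons and neurons depolarized with 55 mM KCl for 1 h, for both ligases and both fractions, and TurboID-PSD95 neurons given 100 µM DHPG for 10 min, which activates metabotropic glutamate receptors of group I. Groups of 2 replicates covered resting and depolarized TurboID-PSD95 neurons treated with 20 nM siRNA against the initiation factor eIF4G2 for 72 h. The labels give cycloheximide for 2 min and biotin for 30 min in all of the 14 groups. The study's methods give a shorter biotin time with DHPG. They place cycloheximide before biotin, and describe replacing the KCl or DHPG medium with fresh medium for the biotin step. Footprints called depolarized or DHPG below were thus collected after this step and not directly from the stimulus medium. The part of this step in the level or position of footprints was not tested. Free-text descriptions of the DHPG inputs and of all knockdown libraries name the cytosol, which in the KCl experiment goes with Pan-TurboID, whereas their lentivirus field gives TurboID-PSD95, which was used here. They give silencing with tetrodotoxin and DL-AP5 for 2 h before KCl and before DHPG but not for resting neurons, so a difference from rest covers silencing and the stimulus together. Each sample combined several dishes, the DHPG neurons had no resting control of their own, and libraries with a control siRNA were not analysed here. The resting TurboID-PSD95 libraries of the KCl experiment therefore stood as the DHPG baseline, and the untreated TurboID-PSD95 libraries as the knockdown baseline. The treatment and the experiment cannot be told apart in those comparisons.

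As background, eEF1A carries aminoacyl-tRNA to the ribosome as a complex with GTP. Most cells use the product of Eef1a1, whereas Eef1a2 encodes a paralog of mature neurons and muscle. The eEF1B complex, with the subunits encoded by Eef1b2, Eef1d and Eef1g, exchanges GDP for GTP on eEF1A. eEF2 moves the ribosome along by a codon, and its phosphorylation by eEF2 kinase, a calcium and calmodulin dependent enzyme encoded by Eef2k, slows elongation. In neurons, this kinase is known as a link between synaptic calcium and protein synthesis.

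The paralogs differ little in protein but enough in sequence to be told apart by footprints, and the first coding bases are printed here because both genes are compared throughout. Capitals mark the 4 bases that differ within the first 30 coding bases (GRCm38, that is mm10, from RefSeq; both genes lie on the minus strand).
Eef1a1, chr9:78480625-78480654: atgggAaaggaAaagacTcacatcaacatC
Eef1a2, chr2:181155377-181155406: atgggCaaggaGaagacAcacatcaacatT
Across 1389 aligned coding bases, 80.1% were identical, the longest identical run was 23 nt, and none of the 30-nt windows of Eef1a1 occurred in Eef1a2. The stretch of Eef2 that encodes the threonine phosphorylated by eEF2 kinase is shown as well, since this site joins 2 of the genes described. Capitals mark codon 57 counted from the start codon, residue 56 of the protein without its first methionine (plus strand of GRCm38).
Eef2, chr10:81177818-81177847: gagacgcgcttcACTgacactcgcaaggat

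Copies elsewhere in the genome limit what some of these counts can say. Of the 30-nt windows of the coding sequence (CDS), 88.9% recurred at another genomic position for Eef1a1, 95.3% for Eef1g, 29% for Eef2, 25% for Eef1b2 and 18.3% for Eef1d. The share was 0.0734% for Eef1a2 and 0% for Eef2k. How reads with several matches were counted is not given in the sources used here, so levels of Eef1a1 and Eef1g are uncertain, and Eef1a2 and Eef2k are the members least open to this.

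The libraries held 5906281 to 35643247 counts in all and 2047166 to 14635947 in CDSs of the transcripts used. Values below are CPM, counts scaled so that the CDS counts of every library have the same sum. A general change in CDS footprints, such as the decrease after KCl that the study reports, is removed by this scaling. Per library, the CDS counts behind a value ran from 43 to 898 for Eef2k and from 2088 to 44522 for Eef2. The 6 neuronal markers summed to between 5210 and 10516 CPM, the 6 astrocyte markers to between 219 and 1413 CPM and the 6 microglial markers to between 0 and 20.1 CPM. Eif4g2, the target of the siRNA, lay between 284 and 338 CPM in knockdown inputs and between 456 and 811 CPM in untreated ones. Arc, an immediate early gene, was higher after KCl in inputs by 3.48 ± 0.20 (log2, SE). With knockdown it was higher by 1.83 ± 0.30 in inputs and 1.62 ± 0.35 in pulldowns. Dlg4, the gene of PSD95, had 131 to 194 CPM in resting TurboID-PSD95 inputs and 49.5 to 59.8 CPM in Pan-TurboID ones. DHPG inputs had 144 to 148 CPM of Dlg4 and knockdown inputs 118.5 to 136 CPM, above every Pan-TurboID input. Their pulldowns had 1080 to 2426 CPM, against 15.7 to 50.2 CPM in Pan-TurboID pulldowns. These values go with the lentivirus field of the DHPG and knockdown libraries. The TurboID-PSD95 construct itself carries PSD95 coding sequence, so the value of Dlg4 in pulldowns does not check the labeling by location.

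Per kilobase of CDS, Eef1a1 had the most footprints in the 6 resting inputs, with 1128 ± 101 CPM per kb (SD). Eef2 followed with 946 ± 28.0, and these neighbours overlapped between libraries. Below them, Eef1a2 had 615 ± 89.3 CPM per kb, Eef1b2 299 ± 24.1 and Eef1g 191 ± 6.23. Eef1d had 71.9 ± 3.42 CPM per kb and Eef2k 7.96 ± 2.29. No other pair of neighbours in this order overlapped. The steps were 1.54-fold from Eef2 to Eef1a2, 2.06-fold to Eef1b2, 1.56-fold to Eef1g, 2.66-fold to Eef1d and 9.03-fold to Eef2k. Averaged over the 14 groups, Eef2 ranked 75 and Eef1a1 105 among all genes by CPM per kb, Eef1a2 169, and Eef2k 7196. For Eef1d the transcript used is the long form, whose first coding exon of 1130 nt is absent from shorter forms. Footprint density in that exon was 1.16 to 1.71 times that of the other coding exons in resting inputs of the KCl experiment and 0.952 to 1.83 times in depolarized ones. It was 0.673 to 1.41 times in resting pulldowns and 0.365 to 1.65 times in depolarized ones, so these groups overlapped. DHPG inputs had 1.45 to 1.69 and DHPG pulldowns 0.784 to 0.913. Knockdown inputs had 1.26 to 1.398 at rest and 0.961 to 1.07 after KCl, and knockdown pulldowns 0.576 to 0.784 and 0.338 to 0.486.

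**Figure D1:**
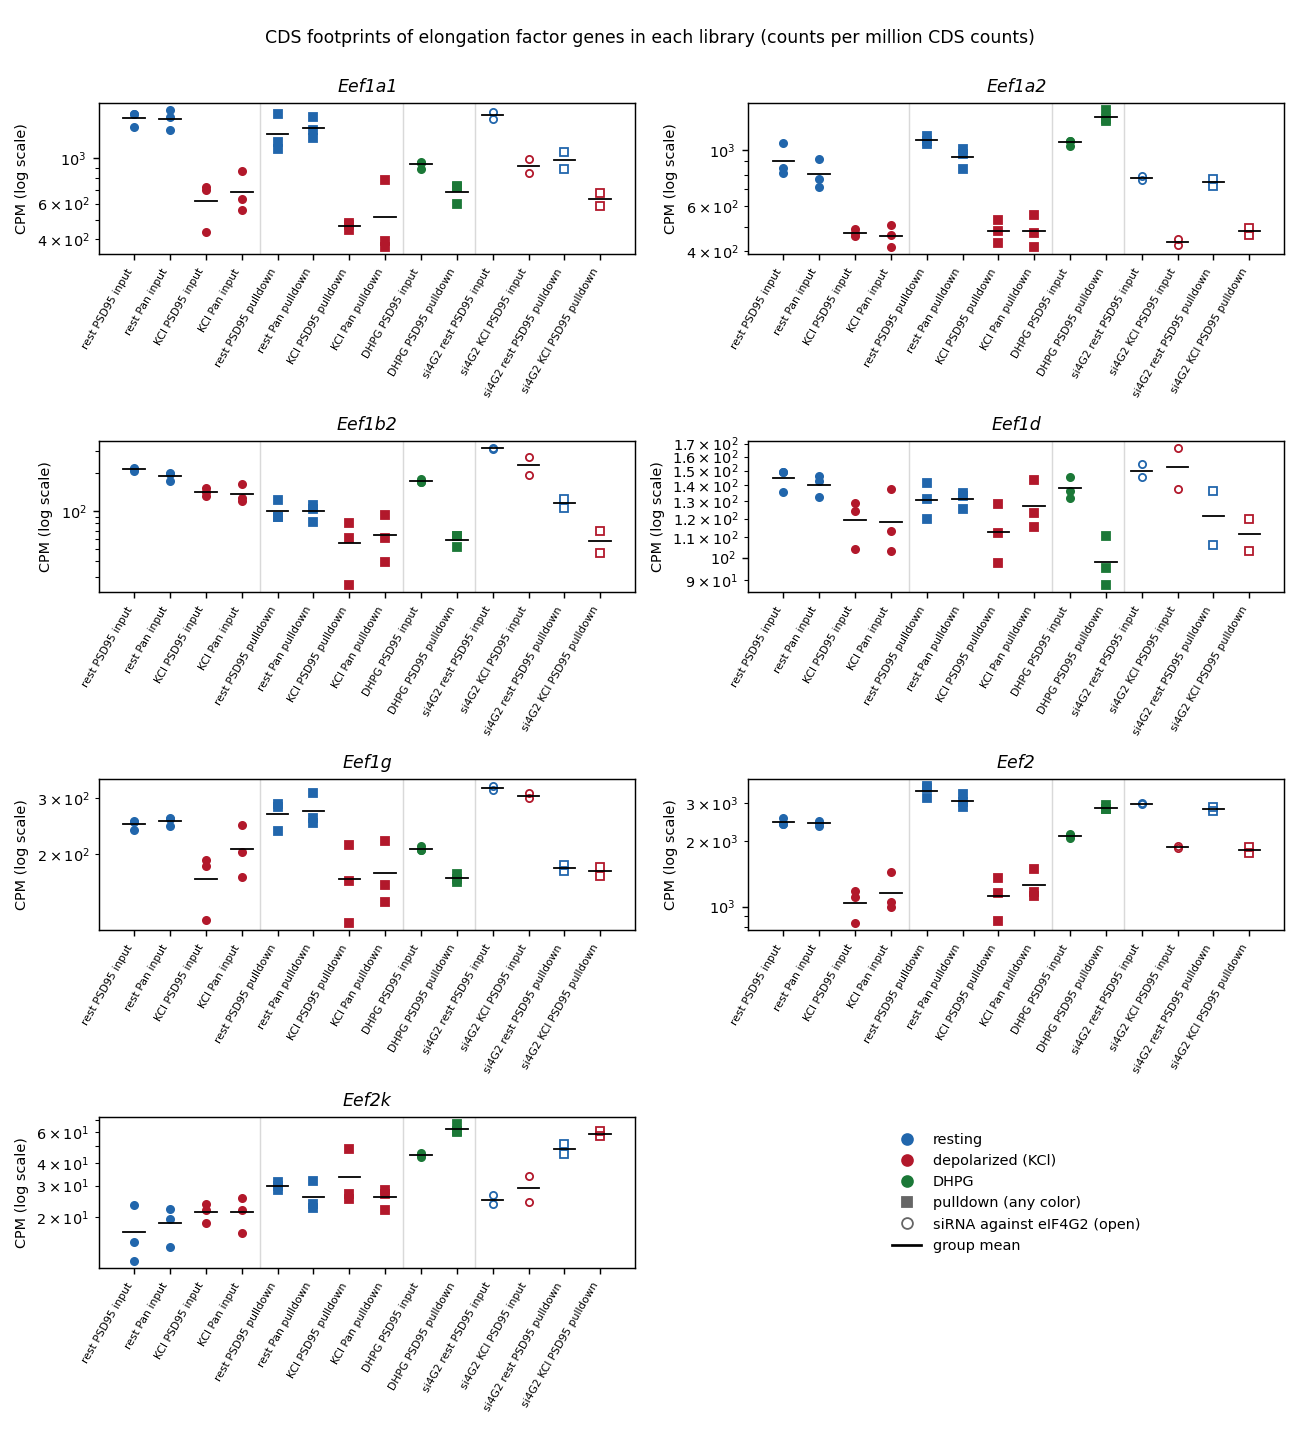
CDS footprints of the 7 genes in each of the 38 libraries, in CPM on a log axis, by group along the x axis; circles are inputs, squares are pulldowns, open symbols mark siRNA against eIF4G2 and lines are group means. Eef1a1, Eef1a2 and Eef2 lie lower in every depolarized group of the KCl experiment than in its resting counterpart. Eef2k has its highest group mean in the DHPG pulldowns, at 60.3 to 66.8 CPM by library, a range that overlaps the depolarized knockdown pulldowns.

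Footprints on both eEF1A paralogs and on eEF2 were fewer in depolarized than in resting inputs. Eef1a1 had 1369, 1621 and 1721 CPM as the lowest, median and highest of 6 resting inputs and 433, 664 and 869 CPM in 6 depolarized inputs. Eef1a2, the neuronal paralog, had 717, 828 and 1066 CPM at rest and 415, 466 and 505 CPM after KCl. Eef2 had 2349, 2420 and 2555 CPM at rest and 835, 1075 and 1438 CPM after KCl. In all of these genes the highest depolarized input lay below the lowest resting input, and all 6 numbered pairs of inputs went down. The log2 differences were −1.23 ± 0.17 (SE) for Eef1a1 (adjusted p = 1.17e-05), −0.84 ± 0.11 for Eef1a2 (adjusted p = 7.55e-06) and −1.12 ± 0.14 for Eef2 (adjusted p = 1.82e-06). The fit took the 6 inputs of a condition as independent, although they came from 3 replicates with both ligases, so these p-values overstate the replication. The adjusted p is the Benjamini-Hochberg value of edgeR's quasi-likelihood test over all genes tested, with 0.05 as the threshold (FDR). Thus 3 of 7 members passed it, all lower, beside 15.4% of 13003 genes in either direction and 9.02% lower. Their median was −0.50, against −0.01 over all genes tested. Fewer neurons with these footprints, less mRNA per neuron and fewer ribosomes per mRNA cannot be told apart in such bulk libraries. The endothelial and fibroblast markers summed to 370 to 467 CPM in resting and 119.7 to 323 CPM in depolarized TurboID-PSD95 inputs, without overlap, and to 259.6 to 467 and 159.8 to 404 CPM in Pan-TurboID ones, which overlap. Over inputs of both ligases the neuronal markers ran from 7838 to 8457 CPM at rest and from 6282 to 10516 CPM after KCl, and the astrocyte markers from 532 to 1057 and from 586 to 1122 CPM. The part of these markers in the result was not tested.

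The exchange factor subunits and the kinase did not pass. Eef1b2, the catalytic eEF1B alpha subunit, had 174, 205 and 219 CPM at rest and 121, 137 and 164 CPM after KCl. These groups did not overlap, yet the difference of −0.50 ± 0.19 missed the threshold (adjusted p = 0.0687). Eef1g, which encodes the scaffold subunit eEF1B gamma, had 238 to 259 CPM at rest and 125 to 248 CPM after KCl, with an overlap (−0.40 ± 0.15, adjusted p = 0.0777). Eef1d, the second exchange subunit, differed by −0.23 ± 0.13 (adjusted p = 0.243). Eef2k had 11.2, 16.9 and 23.4 CPM at rest and 16.3, 21.8 and 25.6 CPM after KCl, overlapping ranges with a difference of 0.31 ± 0.21 (adjusted p = 0.347). Eef2 and its kinase thus did not share a measured direction, although the difference for Eef2k did not pass. The replicate number was also tried as a block, although the counts did not show such a pairing between resting and depolarized libraries. With it, 5 members passed in the inputs: Eef1b2 (−0.51) and Eef1g (−0.41) were added, with adjusted p of 0.034 and 0.0456. Over the alternatives tried, their adjusted p ran from 0.00277 to 0.316 and from 0.0456 to 0.545.

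The same 3 genes passed, again lower, in pulldowns of either ligase. In TurboID-PSD95 pulldowns, Eef1a1 had 1199, 1643 and 1106 CPM at rest and 469, 481 and 443 CPM after KCl. Eef1a2 had 1088, 1057 and 1135 CPM at rest and 430, 533 and 481 CPM after KCl. Eef2 had 3170, 3606 and 3515 CPM at rest and 1359, 853 and 1157 CPM after KCl. Every depolarized library lay below every resting one in these 3 genes. The log2 differences were −1.49 ± 0.25 for Eef1a1 (adjusted p = 0.000412), −1.16 ± 0.16 for Eef1a2 (adjusted p = 4.05e-05) and −1.58 ± 0.20 for Eef2 (adjusted p = 7.75e-06), where 6.58% of genes passed and 3.28% were lower. In Pan-TurboID pulldowns, where 5.03% of genes passed and 3.15% were lower, they were −1.41 ± 0.24, −0.91 ± 0.16 and −1.24 ± 0.20 (adjusted p of 0.000648, 0.000869 and 0.000214). Without replicate 3, Eef1a2 no longer passed in the Pan-TurboID pulldowns (−0.92, adjusted p = 0.115, the highest of 11 alternatives, which began at 4.96e-08). Eef1b2, with 90.4, 123.1 and 89.4 CPM at rest and 25.8, 81.1 and 60.7 CPM after KCl in TurboID-PSD95 pulldowns, differed by −0.83 ± 0.27 (adjusted p = 0.063). Eef1g differed there by −0.66 ± 0.22 (adjusted p = 0.0661), and with the replicate block both passed, which made 5 members. Eef1b2 passed under 5 of 11 alternatives in all (−1.09 to −0.63, adjusted p of 0.00269 to 0.26) and Eef1g under 4 of 11 (−1.02 to −0.40, adjusted p of 0.00995 to 0.477). The neuronal markers summed to 7614 to 8233 CPM in resting and 5984 to 7362 CPM in depolarized TurboID-PSD95 pulldowns, and their part in these differences was not tested. Eef2k differed by 0.17 ± 0.30 and 0.05 ± 0.29 in the pulldowns of the 2 ligases.

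Whether the drop was larger in dendritic pulldowns than in inputs was tested directly, as the change in pulldown over inputs with KCl. None of the 7 genes passed, and neither did any gene at all (0% of 13003 genes by edgeR, with 342 at an unadjusted p under 0.05). Eef2 came closest, at −0.46 ± 0.24 (adjusted p = 1; unadjusted p = 0.0601). Nor did a member differ between TurboID-PSD95 and Pan-TurboID in pulldown over own input, a contrast with 0.00769% of genes past the threshold (169 genes at p under 0.05 before adjustment). The 7 differences ran from −0.20 ± 0.27 for Eef1b2 to 0.36 ± 0.30 for Eef2k. Together, the 7 genes took 0.504% to 0.577% of all CDS counts in resting inputs and 0.216% to 0.334% in depolarized inputs.

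**Figure D2:**
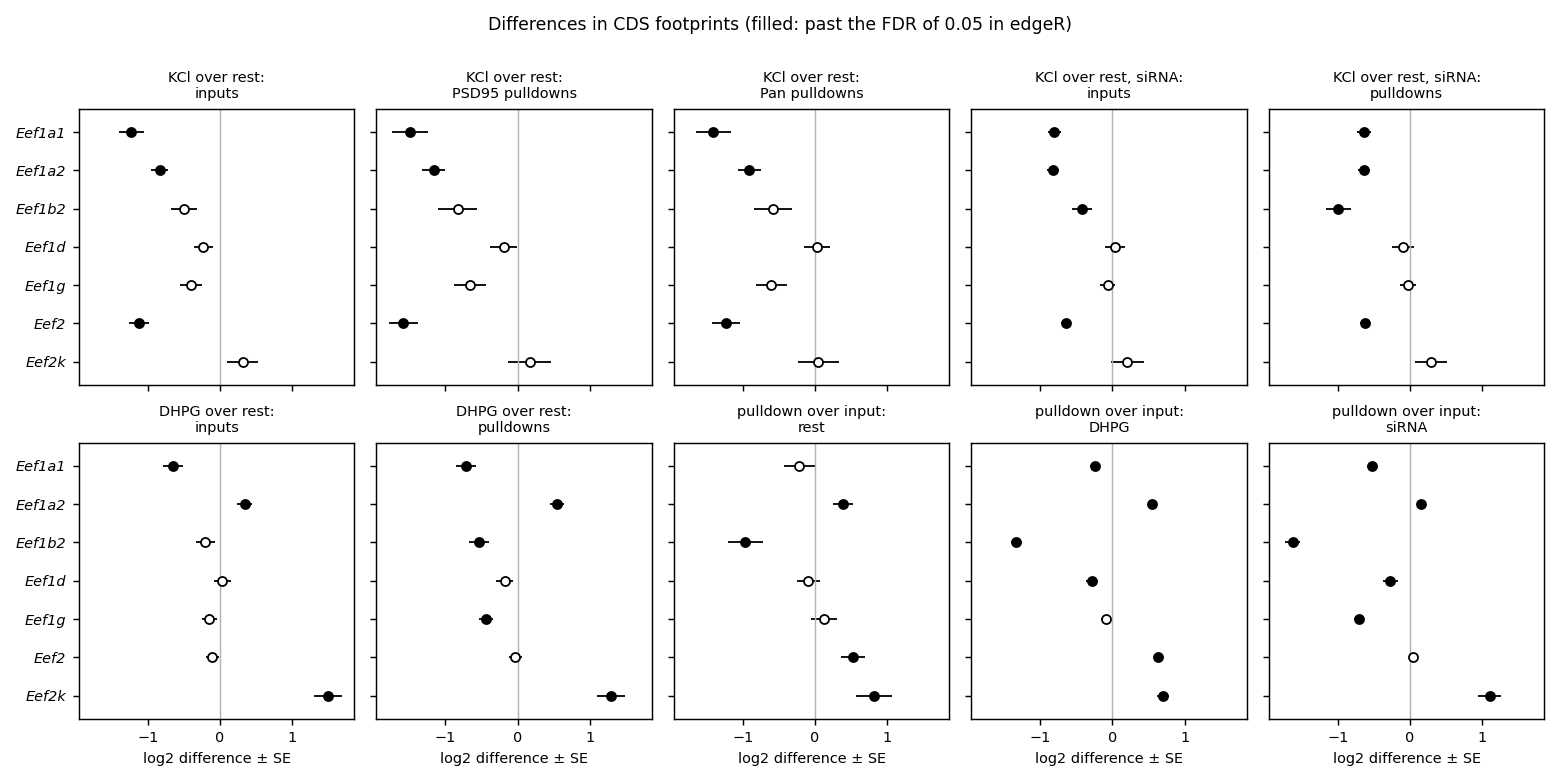
Log2 differences in CDS footprints with their standard errors for the 7 genes in 10 comparisons; filled points passed an adjusted p of 0.05 in edgeR and panels marked siRNA are within the eIF4G2 knockdown. Eef1a1, Eef1a2 and Eef2 are filled and below 0 in all 5 comparisons of KCl with rest, and Eef2k reaches 1.497 in DHPG inputs.

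Footprints were not lost evenly along the CDS. In the first coding segment of Eef1a1 (the coding part of an exon, bases 1 to 144), mean density was 1649 CPM per kb in resting inputs and 1565 after KCl, a ratio of 0.95. The ratio was 0.99 in the next segment, 0.49 in the third and 0.24 to 0.31 in the last 4. In Eef2 the segment from base 4 to 218, which holds the kinase site printed above, went from 1612 to 1994 CPM per kb, a ratio of 1.24. The ratio was 0.68 and 0.52 in the next segments and 0.30 to 0.40 between bases 613 and 1150. From base 1151 onward all 7 segments of Eef2 had ratios between 0.19 and 0.27. Eef1a2 had 1.41 in its first segment and 0.40 to 0.42 from the third onward. Eef1g had 1.26 between bases 13 and 171, 0.78 to 1.25 in the segments up to base 652, 0.34 between bases 653 and 857 and 0.41, 0.65 and 0.53 in the last 3. Eef1b2 had 0.79, 1.19 and 0.70 in its first 3 segments and 0.32 to 0.36 in the last 3. The highest ratio thus lay within the first 3 segments of each of these genes, and the ratio was already below 0.5 by the third segment of both paralogs. Of the 30-nt windows before the CDS midpoint, 100% recurred in the genome for Eef1a1, 95.4% for Eef1g, 13% for Eef2 and 0% for Eef1a2 and Eef1b2. After the midpoint the shares were 79.6% for Eef1a1, 95.1% for Eef1g, 46.9% for Eef2, 50.8% for Eef1b2 and 0.135% for Eef1a2.

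**Figure D3:**
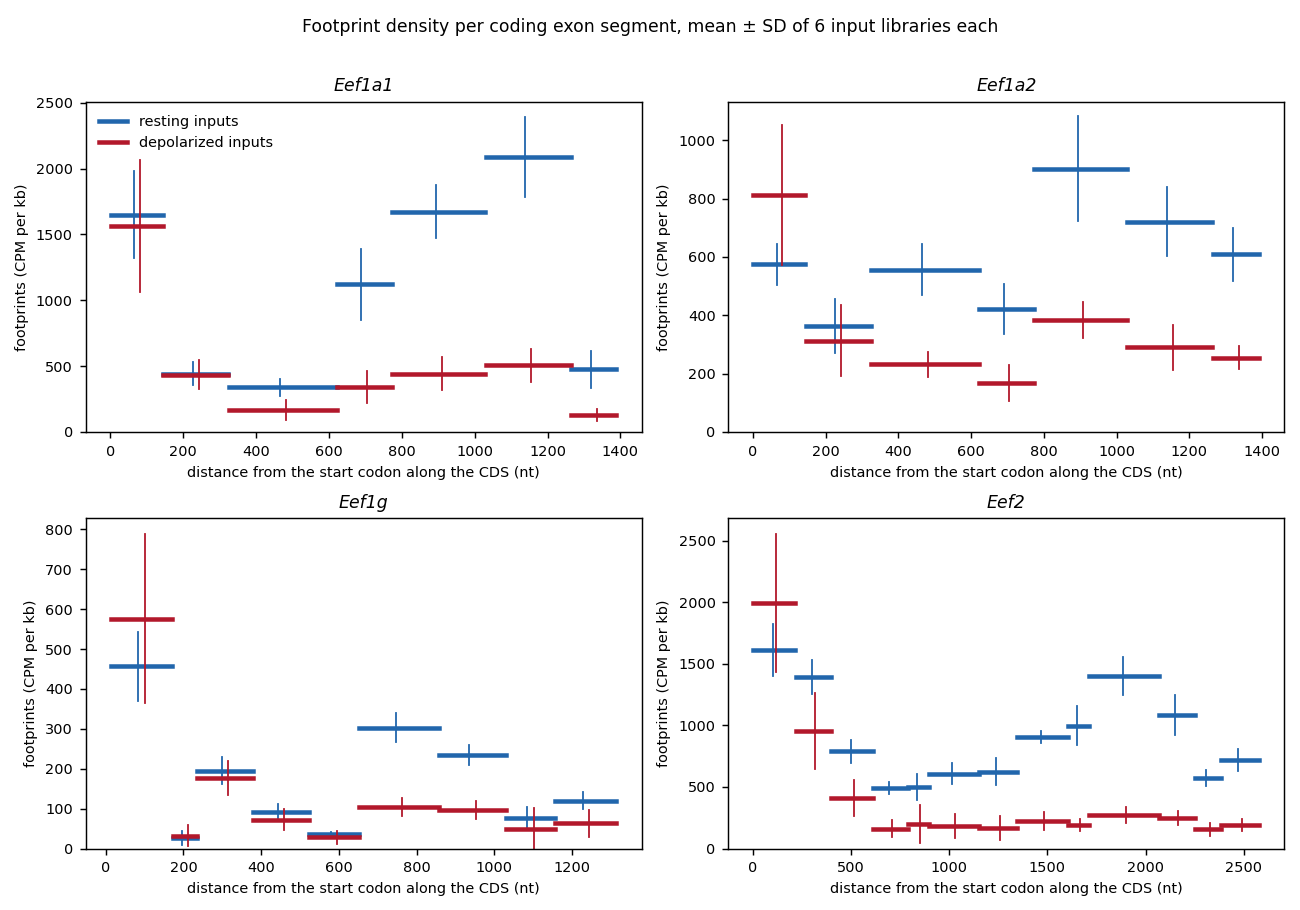
Mean footprint density with SD (vertical lines) in each coding exon segment of Eef1a1, Eef1a2, Eef1g and Eef2, in CPM per kb against the distance from the start codon, for 6 resting and 6 depolarized inputs. The depolarized lines meet the resting ones near the start codon and lie below them towards the stop codon, at 0.19 to 0.27 of the resting density in the last 7 segments of Eef2.

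To test this, segments were divided at the CDS midpoint into a 5′ side and a 3′ side. Each segment went whole to the side that held its own midpoint. The ratio of the counts of the sides was compared between groups with edgeR, with each library as a block. Inputs of both ligases were again taken as independent, so p-values for inputs overstate the replication. This test was chosen after the data had been seen. The 5′ side of Eef1a1 held 20.5, 26.1 and 36.1% of its CDS footprints (lowest, median and highest) in resting inputs and 45.8, 54.7 and 60.7% in depolarized inputs. That of Eef2 held 45.9, 48.2 and 52.1% at rest and 69.3, 74.5 and 79.8% after KCl. That of Eef1g held 42.6, 46.8 and 54.6% at rest and 59.1, 71.8 and 80.1% after KCl. None of these ranges overlapped between conditions. The log2 change in the ratio of 5′ to 3′ counts was 1.69 ± 0.20 for Eef1a1 (adjusted p = 2.54e-06), 1.63 ± 0.19 for Eef2 (adjusted p = 1.94e-06) and 1.45 ± 0.23 for Eef1g (adjusted p = 0.000526). It was 0.88 ± 0.23 for Eef1a2 (adjusted p = 0.0247) and 1.33 ± 0.34 for Eef1b2 (adjusted p = 0.0223), whose ranges overlapped. Thus 5 of 7 members rose, beside 5.18% of 8527 genes tested in either direction, 5.1% higher and a median of 0.33 over all of them. Eef1d (−0.30 ± 0.28) and Eef2k (0.09 ± 0.45) did not pass. For Eef1d the 5′ side is the exon of bases 1 to 1130 alone, which runs past the midpoint and is absent from shorter forms. Its ratio therefore cannot separate the position of footprints from the use of the long form. Without replicate 2, 3 members passed (Eef1a1, Eef1g and Eef2), and without replicate 3 only Eef1a1 and Eef2 did.

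In CPM, which are relative to the CDS total of each library, the 5′ side changed less than the 3′ side. Eef1a1 had 327 to 494 CPM on the 5′ side in resting inputs and 260 to 490 CPM after KCl, while its 3′ side went from 875 to 1277 CPM at rest to 174 to 379 CPM. The 5′ side of Eef2 had 1101, 1180 and 1258 CPM at rest and 666, 778 and 1131 CPM after KCl, and its 3′ side 1157 to 1361 CPM at rest and 169 to 318 CPM after KCl. The 3′ ranges did not overlap in either gene, whereas the 5′ ranges did, for Eef2 through 1 depolarized input. The 5′ side of Eef1a2 had a mean of 313 CPM at rest and 242 CPM after KCl, also overlapping. In TurboID-PSD95 pulldowns the 5′ side of Eef1a1 held 25.3, 20.2 and 24.8% at rest and 49.1, 60.5 and 55.6% after KCl, a log2 change of 2.02 ± 0.28 (adjusted p = 0.000298). It was the member that passed there and, at 1.35 ± 0.28 (adjusted p = 0.0212), in Pan-TurboID pulldowns, where 0.281% and 0.235% of genes passed. Without replicate 2 or 3, no member passed in TurboID-PSD95 pulldowns, and without replicate 1, 3 did (Eef1a1, Eef1b2 and Eef1g). In Pan-TurboID pulldowns none passed when replicate 1, 2 or 3 was left out. With the replicate block, Eef1b2 was added in TurboID-PSD95 pulldowns and Eef2 in Pan-TurboID pulldowns, 2 members in each.

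**Figure D4:**
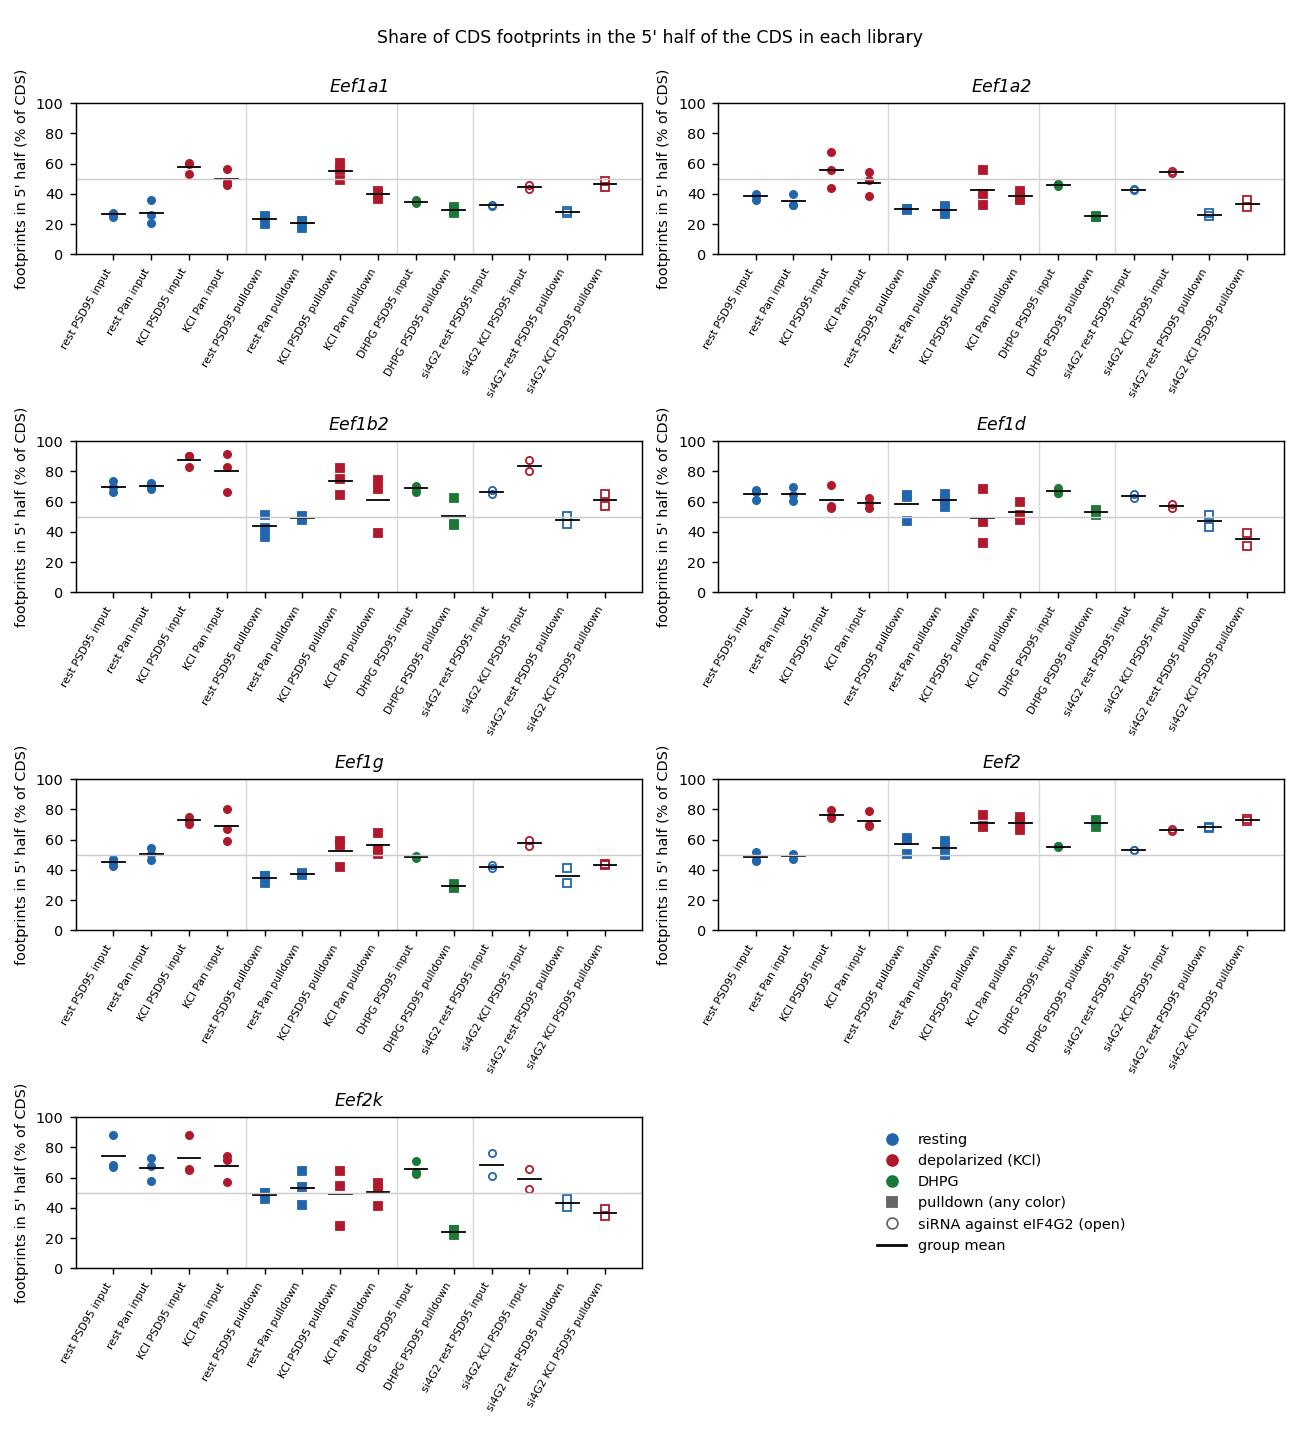
Share of CDS footprints in segments on the 5′ side of the CDS midpoint, in percent, for the 7 genes in each of the 38 libraries. Symbols are as in the plot of CDS footprints by library and lines are group means. Segments were placed whole by their own midpoint, so the 5′ side of Eef1d is its first coding exon. In inputs the share for Eef2 moves from 45.9 to 52.1% at rest to 69.3 to 79.8% after KCl, with no overlap, while Eef2k ranges overlap.

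In 5′ UTRs, no member passed after KCl in inputs or in either pulldown, where 0.442%, 0.275% and 0.128% of genes passed, all higher, nor in knockdown inputs after KCl, where 3.4% passed. Eef1a1 had 65.2, 120 and 138 CPM in its 5′ UTR in resting inputs and 72.6, 93.8 and 130 CPM after KCl, a difference of −0.15 ± 0.34 (adjusted p = 1). Eef2 differed by −0.34 ± 0.35 (adjusted p = 1). In inputs the decrease of the CDS footprints of both genes thus had no counterpart past the threshold upstream of the start codon. At these standard errors, not passing does not show that 5′ UTR footprints were unchanged. In TurboID-PSD95 pulldowns the members ran from −0.05 for Eef1b2 to 1.68 for Eef1g, with a median of 0.47. Over all genes the median there was 0.65, with 1381 genes at an unadjusted p under 0.05 by edgeR. Footprint 5′ ends were counted without an offset, and ribosomes on the first codons therefore fall in the 5′ UTR. Eef2k stood out for its upstream footprints. In resting inputs, 58.5 to 80.8% of its 5′ UTR and CDS footprints lay in the 5′ UTR. Pooled over these libraries, its share was above that of 96.2% of 10364 genes, whose median was 18.8%. Per base, the 5′ UTR of Eef2k was 8.87 to 26.5 times as dense as its CDS. Resting pulldowns had 26.3 to 49.3% there, DHPG inputs 48.95 to 52.3% and DHPG pulldowns 13.4 to 23.1%. Even in DHPG pulldowns the pooled share lay above that of 80.1% of genes. Eef1b2 had 31.0 to 45.6% in resting inputs, above 77.3% of genes by its pooled share, and Eef1a1 4.54 to 7.91%. Eef1g had at most 34 counts in its 5′ UTR, and 0 in 6 libraries, so that a change there was not detectable at this depth.

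At rest, pulldowns of TurboID-PSD95 were set against inputs to ask which factors had more footprints near the ligase, although no member differed between the ligases in this respect. Eef2 had 3170 to 3606 CPM in the 3 pulldowns and 2349 to 2555 CPM in the 6 inputs, with no overlap, and was higher by 0.52 ± 0.16 (adjusted p = 0.0179). Eef2k had 28.3 to 31.6 CPM against 11.2 to 23.4 CPM, also without overlap, and was higher by 0.81 ± 0.25 (adjusted p = 0.0161). Eef1a2 had 1057 to 1135 CPM against 717 to 1066 CPM, which overlap, and was higher by 0.39 ± 0.14 (adjusted p = 0.0315). Eef1b2 was lower, with 89.4 to 123.1 CPM against 174 to 219 CPM and a difference of −0.97 ± 0.24 (adjusted p = 0.00467). Eef1a1 (−0.22 ± 0.21), Eef1d and Eef1g did not pass. These 4 of 7 members stand beside 31.1% of genes. Without replicate 3 none of them passed, without replicate 2 Eef1b2 and Eef2 did, and once a trend with CDS length was removed only Eef1b2 did. The call for Eef1a2 was lost under 6 of 12 alternatives, also without TMM, without the filter on low counts and against the inputs of TurboID-PSD95 alone (0.25 to 0.54, adjusted p up to 0.36).

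Eef1b2 was lower in pulldowns in all 5 contrasts of pulldown with input. Its CDS, at 678 nt, is the shortest of the 7. Over the alternatives, among them removal of the length trend, its difference ran from −1.14 to −0.56 at rest and −1.72 to −0.98 after KCl. The ranges were −1.10 to −0.60 with Pan-TurboID, −1.54 to −0.60 with DHPG and −1.77 to −1.08 with knockdown. After KCl it was lower by 1.29 ± 0.25 in TurboID-PSD95 pulldowns over inputs (log2 difference −1.29, adjusted p = 0.00179), where 18% of genes passed. With Pan-TurboID, over resting and depolarized libraries together, the difference was −0.97 ± 0.19 (adjusted p = 0.000707), where 34.1% passed. The replicate block added Eef2k in both contrasts, making 2 members, and without replicate 3 none passed after KCl. In the DHPG pulldowns Eef1b2 had 51.7, 63.0 and 63.2 CPM against 170, 181 and 169 CPM in their inputs (−1.33 ± 0.08, adjusted p = 4.26e-11), and across knockdown libraries it differed by −1.63 ± 0.11 (adjusted p = 2.53e-12). In those contrasts, whose replicates mostly spread less than those of the KCl experiment, 6 of 7 members passed beside 79.7% and 59.7% of all genes. Eef2k was higher in both, by 0.70 ± 0.09 and 1.11 ± 0.16, and so was Eef1a2, by 0.55 ± 0.05 and 0.15 ± 0.06. In knockdown libraries that call for Eef1a2 was lost under 8 of 16 alternatives (0.04 to 0.18, adjusted p up to 0.619), which were no TMM, the highest-count transcript, removal of the length trend and 5 of the 8 left-out libraries. The call for Eef1d there (−0.27, lower) was lost under 5 of 16, DESeq2 and 4 left-out libraries (adjusted p up to 0.13). Genes of cytosolic ribosomal proteins were lower in the same 5 contrasts, in the main fit and without removal of the length trend. These were 61 of 77 tested at rest (median −1.01), 43 of 77 after KCl, 64 of 77 with Pan-TurboID, 73 of 76 with DHPG and 69 of 75 with knockdown. The endothelial and fibroblast markers were lower in pulldowns at rest, at 121 to 231 against 259.6 to 467 CPM. With DHPG they had 29.0 to 31.9 against 41.8 to 43.9 CPM, and with knockdown 86.8 to 115.7 against 217.5 to 360.4 CPM. Their sums overlapped in the other contrasts. In DHPG pulldowns the oligodendrocyte lineage markers (7.97 to 9.9 against 15.2 to 18.8 CPM) and neuronal markers (8876.5 to 9154.5 against 9280 to 9370 CPM) were also lower than in inputs. The astrocyte markers were higher there (237.5 to 258 against 219 to 229 CPM). With knockdown the oligodendrocyte lineage markers had 20.2 to 37.6 against 41.0 to 43.4 CPM. The part of any of these markers was not tested. Eef2 was higher in DHPG pulldowns by 0.64 ± 0.05 but did not pass in knockdown ones (0.04 ± 0.05), and with the length trend removed these values were 0.05 and −0.42. Pulldown footprints lay further 3′ in general, with a median of −0.90 over all genes for the log2 ratio of 5′ to 3′ counts at rest, where 41.2% of genes passed and 40.8% were lower. Eef1b2 (−1.60 ± 0.41), Eef1g (−0.80 ± 0.28) and Eef2k (−1.32 ± 0.53) passed in that direction and Eef2 did not (0.50 ± 0.23). The replicate block added Eef2, as the member with a higher 5′ share in pulldowns, while Eef1b2 alone passed without replicate 2 and none without replicate 3.

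DHPG went with opposite directions of the eEF1A paralogs and with more footprints on Eef2k. Eef2k had 44.7, 45.7 and 43.3 CPM in DHPG inputs against 23.4, 14.3 and 11.2 CPM in resting TurboID-PSD95 inputs, and 60.7, 60.3 and 66.8 CPM against 29.8, 31.6 and 28.3 CPM in pulldowns. No DHPG library overlapped a resting one, and the differences were 1.497 ± 0.19 (adjusted p = 2.73e-05) and 1.30 ± 0.19 (adjusted p = 4.02e-05). Eef1a1 had 890, 951 and 957 CPM in DHPG inputs against 1643, 1650 and 1417 CPM at rest, lower by 0.65 on the log2 scale (−0.65 ± 0.14, adjusted p = 0.0022). In pulldowns it had 600, 721 and 729 CPM against 1199, 1643 and 1106 CPM (−0.72 ± 0.14, adjusted p = 0.000564). Eef1a2 had 1084, 1037 and 1087 CPM in DHPG inputs against 1066, 809 and 847 CPM, an overlap (0.34 ± 0.10, adjusted p = 0.0143). In pulldowns it had 1323, 1299 and 1434 CPM against 1088, 1057 and 1135 CPM, with no overlap (0.54 ± 0.10, adjusted p = 0.000293). Eef2 did not pass in either fraction (−0.11 ± 0.09 and −0.03 ± 0.09), although its CPM did not overlap, with 2071 to 2160 in DHPG inputs against 2400 to 2555 at rest and 2811 to 2945 in DHPG pulldowns against 3170 to 3606.

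In all, 3 members passed in DHPG inputs and 5 in DHPG pulldowns, beside 32.8% and 47.7% of 12787 genes, with Eef1b2 (−0.54 ± 0.14) and Eef1g (−0.44 ± 0.10) lower in pulldowns. Without replicate 2 neither of those passed, which left 3 members in pulldowns. Eef1b2 lost its call there under 2 of 11 alternatives (−0.77 to −0.28, adjusted p up to 0.0846). In inputs, Eef1a2 did not pass without replicate 2, without replicate 3 or without TMM scaling. Without TMM all 7 members passed in pulldowns, Eef2 (−0.26, adjusted p = 0.0125) and Eef1d (−0.41, adjusted p = 0.00625) being added as lower, and Eef1d passed too once the length trend was removed. Marker levels moved with the same contrast. In DHPG inputs the astrocyte markers summed to 219 to 229 CPM and the endothelial and fibroblast markers to 41.8 to 43.9 CPM, against 532 to 1057 and 370 to 467 CPM in resting TurboID-PSD95 inputs. The neuronal markers summed to 9280 to 9370 CPM against 7838 to 8457 CPM. The oligodendrocyte lineage markers summed to 15.2 to 18.8 CPM against 62.7 to 214.5 CPM. In DHPG pulldowns the astrocyte markers summed to 237.5 to 258 CPM, against 630 to 1413 CPM in resting TurboID-PSD95 pulldowns. The endothelial and fibroblast markers had 29.0 to 31.9 against 121 to 231 CPM there. Oligodendrocyte lineage markers had 7.97 to 9.9 against 43.0 to 212.5 CPM, and neuronal markers 8876.5 to 9154.5 against 7614 to 8233 CPM. The part of cell makeup in the DHPG values was not tested. In 5′ UTRs, Eef1a1 was the member that passed, in inputs (−1.004 ± 0.32, adjusted p = 0.0429) and pulldowns (−1.09 ± 0.34, adjusted p = 0.0435), where 10.5% and 7.26% of genes passed and the median over genes was −0.44 and −0.38. Eef1a1 did not pass in either fraction when replicate 1, 2 or 3 was left out, or with RLE size factors, and in inputs without replicate 1 Eef2 passed instead.

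The position of footprints along the CDS was compared for DHPG in the same way. In DHPG inputs the ratio of 5′ to 3′ counts was higher for Eef1a1 (0.56 ± 0.12, adjusted p = 0.00404) and Eef1a2 (0.46 ± 0.11, adjusted p = 0.00565). There 15.8% of genes passed, and the median over all genes was −0.18. The 5′ side of Eef1a1 held 35.6, 34.4 and 33.8% in DHPG inputs against 26.5, 24.98 and 27.6% at rest. A further division kept only segments whose own midpoint lay in the outer parts of the CDS. For Eef1a1 these were bases 1 to 324 and 1030 to 1389, with bases 325 to 1029 left out. The value for Eef1a1 then turned to −0.05 in inputs and from 0.44 to −0.81 in pulldowns, so its direction rested on where the CDS was divided. In pulldowns, where 36% of genes passed, Eef2 had 72.9, 71.5 and 68.5% on the 5′ side against 50.6 to 61.0% at rest (0.87 ± 0.14, adjusted p = 7.57e-05). Eef2k had 25.5, 22.0 and 25.3% against 46.0, 49.7 and 50.0% (−1.54 ± 0.30, adjusted p = 0.000411). The groups did not overlap in either gene, and the 2 genes went in opposite directions. Eef1a2 (−0.34 ± 0.11) and Eef1g (−0.36 ± 0.14) were also called lower there, near the median of −0.38 over all genes tested. Of the genes called there, 2633 were lower and 521 higher, and Eef1a1 was higher. Without replicate 1 or without replicate 2, 3 members passed in pulldowns, Eef2 and Eef2k with Eef1d in the first case and with Eef1b2 in the second. In inputs, only Eef1a1 passed without replicate 1 or without replicate 3.

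The balance of the eEF1A paralogs was also taken as 1 ratio per library, Eef1a2 over Eef1a1 per kb, which no scaling can change. It lay between 0.481 and 0.648 in the 6 resting inputs and between 0.580 and 1.13 in the 6 depolarized ones. The mean log2 ratio was higher after KCl by 0.43, with p = 0.013 in an exact two-sided permutation test and 0.0649 after adjustment over 5 comparisons. It was higher in 6 of 6 numbered pairs of inputs, and an exact sign-flip permutation within pairs gave an adjusted p of 0.0938 over 3 KCl comparisons, the smallest value that these numbers of pairs allow. The 6 inputs of a condition came from 3 replicates with 2 ligases each. Inputs with the same number deviated from their group means together, with correlations of 0.37 to 0.65 at rest and 0.28 to 0.41 after KCl. Both tests took these inputs as independent, so their p-values overstate the replication. Without replicate 2 the difference was 0.145. In TurboID-PSD95 pulldowns the ratio lay between 0.642 and 1.02 at rest and between 0.916 and 1.11 after KCl, higher in 3 of 3 pairs by a mean of 0.29 (exact permutation p = 0.2). In DHPG inputs the ratio lay between 1.09 and 1.22 and in DHPG pulldowns between 1.80 and 2.20, against 0.489 to 0.648 and 0.642 to 1.02 in the corresponding resting libraries. Neither range overlapped with rest, and the log2 ratio was higher by 0.99 and 1.24. For 3 libraries against 3 the exact two-sided permutation test cannot go below p = 0.1, and both comparisons gave that value (adjusted p = 0.167). The ratio in Pan-TurboID pulldowns after KCl ran from 0.604 to 1.41 against 0.635 to 0.703 at rest, with p = 0.4 in the exact test. In knockdown inputs it was 0.455 and 0.503 at rest and 0.428 and 0.526 after KCl.

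**Figure D5:**
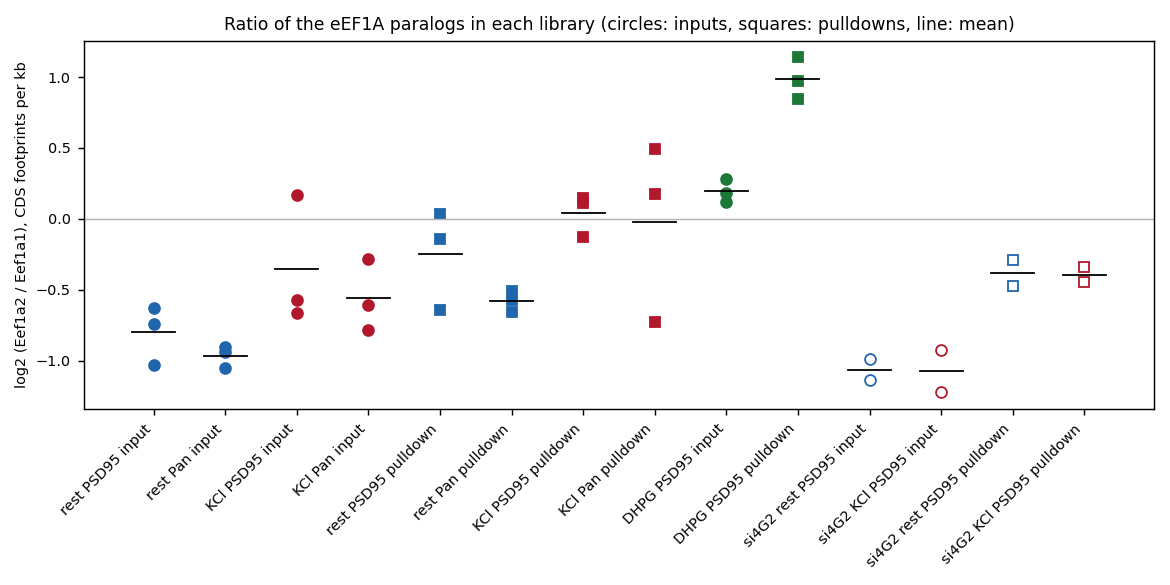
Log2 ratio of Eef1a2 to Eef1a1 CDS footprints per kb in each of the 38 libraries by group; circles are inputs, squares pulldowns, open symbols the eIF4G2 knockdown, lines group means and the grey line marks equal density. The 3 DHPG pulldowns are highest, with ratios of 1.80 to 2.20, and the lowest library is a depolarized knockdown input, with 0.428.

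With eIF4G2 knocked down, KCl again went with fewer footprints on both paralogs and on Eef2. Eef1a1 had 1559 and 1677 CPM in resting knockdown inputs and 986 and 846 CPM after KCl (−0.81 ± 0.09, adjusted p = 5.58e-07). Eef1a2 had 786 and 764 CPM at rest and 423 and 446 CPM after KCl (−0.82 ± 0.08, adjusted p = 6.21e-08). Eef2 had 3004 and 2970 CPM at rest and 1906 and 1870 CPM after KCl (−0.65 ± 0.07, adjusted p = 8.61e-08). No depolarized library reached a resting one in these genes. Eef1b2, with 317 and 312 CPM at rest and 268 and 193 CPM after KCl, also passed (−0.42 ± 0.14, adjusted p = 0.0322). That call was lost without either resting input, without the second depolarized input, with RLE size factors and in DESeq2. In pulldowns the differences were −0.64 ± 0.10 for Eef1a1, −0.64 ± 0.09 for Eef1a2, −0.63 ± 0.07 for Eef2 and −0.99 ± 0.17 for Eef1b2 (adjusted p of 2.1e-05, 3.36e-06, 1.44e-07 and 1.01e-04). Thus 4 of 7 members fell in each fraction, beside 19.3% and 22.2% of 12223 genes in either direction and 10.3% and 12% lower. Eef1g, Eef1d and Eef2k did not pass. The 6 neuronal markers summed to 8542 to 8720 CPM at rest and 6696 to 6880 CPM after KCl in these inputs, and to 6975 to 7078 and 5210 to 5257 CPM in these pulldowns, without overlap. In the inputs the astrocyte markers went from 594 to 608 CPM at rest to 724 to 756 CPM, and the endothelial and fibroblast markers from 218 to 226 CPM to 357 to 360.4 CPM, also without overlap. Microglial markers went from 9.75 to 10.4 CPM to 11.7 to 20.1 CPM. In the pulldowns astrocyte markers went from 502 to 646 CPM to 671 to 902 CPM. Oligodendrocyte lineage markers there went from 34.2 to 37.6 CPM to 20.2 to 29.0 CPM, and microglial ones from 5.55 to 9.05 CPM to 9.87 to 9.93 CPM. The part of these markers in the result was not tested.

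The KCl responses with and without knockdown were set against each other in an interaction term, and no member passed. In inputs, 0.00759% of 13180 genes passed, and the differences in response were 0.53 ± 0.31 for Eef1a1, 0.11 ± 0.23 for Eef1a2 and 0.59 ± 0.29 for Eef2 (adjusted p = 1 in each). In pulldowns, where 0.448% of genes passed, they were 0.89 ± 0.31 for Eef1a1 (adjusted p = 0.324), 0.56 ± 0.23 for Eef1a2 (adjusted p = 0.435) and 0.99 ± 0.29 for Eef2 (adjusted p = 0.173). Without untreated replicate 1, Eef2 passed there at 1.27 (adjusted p = 0.00888). Across both conditions, knockdown inputs had more footprints than untreated ones on Eef1b2 (0.65 ± 0.19, adjusted p = 0.0234), Eef1g (0.65 ± 0.16, adjusted p = 0.00699) and Eef2 (0.60 ± 0.14, adjusted p = 0.00604), 3 members beside 15.9% of genes in either direction and 7.99% higher. The call for Eef1b2 was lost under 4 of 19 alternatives (adjusted p up to 0.148), namely without either resting knockdown input, without the first depolarized one and without untreated replicate 3. The 6 microglial markers summed to 9.75 to 20.1 CPM in knockdown inputs and 1.28 to 5.74 CPM in untreated TurboID-PSD95 inputs. The 6 oligodendrocyte lineage markers summed to 41.0 to 43.4 and 55.0 to 214.5 CPM. The part of these markers was not tested. In knockdown pulldowns Eef2k was higher by 0.82 ± 0.22 (adjusted p = 0.00682), beside 29% of genes. The microglial markers summed to 5.55 to 9.93 CPM there and 0 to 2.93 CPM in untreated TurboID-PSD95 pulldowns. The oligodendrocyte lineage markers summed to 20.2 to 37.6 and 41.3 to 212.5 CPM, and the part of either was not tested. The 5′ side gained in share after KCl in knockdown inputs too, with 5 of 7 members passing beside 8.55% of genes, 8.24% higher. Values were 0.75 ± 0.12 for Eef1a1, 0.68 ± 0.14 for Eef1a2, 1.47 ± 0.24 for Eef1b2, 0.91 ± 0.20 for Eef1g and 0.79 ± 0.10 for Eef2, against a median of 0.32 over all genes. Leaving out a single library cost Eef1g its call in 2 cases (the first resting and the second depolarized input, adjusted p up to 0.106), Eef1a2 in 1 (the second resting input, 0.0591) and Eef1b2 in 1 (the first depolarized input, 0.0561). In knockdown pulldowns 5.98% of genes passed, 2.76% higher, and the median was 0.00. The calls of Eef1a2 (0.34 to 0.65 over the alternatives) and Eef2 (0.28 to 0.54) were each lost under 7 of 13 alternatives. In the main fit, Eef1a1 (1.17 ± 0.12), Eef1a2 (0.51 ± 0.15) and Eef2 (0.34 ± 0.10) passed. Only Eef1a1 did so without the first or second resting input, the second resting pulldown or the second depolarized input.

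Other genes of the elongation pathway were counted in KCl inputs, where 15.4% of all genes passed and 9.02% were lower. Of 6 termination and recycling factors, 0 were higher and 1 lower, Hbs1l (−0.98 ± 0.20, adjusted p = 0.00127), which acts on stalled ribosomes. Among 7 other cytosolic elongation factors, 0 were higher and 2 lower, with Gtpbp2, another GTPase of ribosome rescue, at −1.001 ± 0.21 (adjusted p = 0.00165). Of 10 tested modifiers of eEF1A and eEF2, 1 was higher, Mettl13 (0.64 ± 0.20, adjusted p = 0.0251), which methylates eEF1A, and none lower. None of 5 mitochondrial elongation factors passed in either direction. Of 9 tested regulators of eEF2 kinase and eEF2, 1 was lower, Prkaa2 (−0.44 ± 0.14, adjusted p = 0.0368), the catalytic alpha 2 subunit of AMP-activated kinase. In knockdown KCl inputs, Hbs1l (−0.59 ± 0.20, adjusted p = 0.0408), Prkaa2 (−0.73 ± 0.17, adjusted p = 0.00207) and Vars, a valyl-tRNA synthetase that binds the eEF1 complex (−0.95 ± 0.12, adjusted p = 3.07e-06), were lower. Cytosolic ribosomal proteins, of which 77 were tested, had a median of 0.03 with 4 lower and 0 higher in KCl inputs, and 37 initiation factors a median of −0.07 with 4 lower and 1 higher. For the ratio of 5′ to 3′ counts, 9 of 64 ribosomal protein genes, 5 of 35 initiation factors and 4 of 9 regulators passed in KCl inputs, all higher, with medians of 0.55, 0.51 and 0.81, beside 5.18% and a median of 0.33 over all genes. None of 5 termination and recycling factors (median 0.06), 6 modifiers (0.44) and 5 mitochondrial factors (0.29) passed, and 1 of 6 other elongation factors did (0.42).

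By Pearson correlation of log2(CPM + 1) over the 14 group means, among 7926 genes with a mean of at least 16 CPM, the genes most like Eef1a1 were Rbm15b (0.95), Mpp6 (0.94) and Ehmt2 (0.93). Those most like Eef1a2 were Vash1 (0.96), Ppp2r2c (0.96) and Tubb4a (0.96). For Eef2 they were Pcif1 (0.96), Dgkd (0.95) and Gpr12 (0.94), and for Eef2k Fbxo25 (0.96), Sesn1 (0.95) and Vav2 (0.94). Among the members, Eef1b2 and Eef1d correlated at 0.83, Eef1d and Eef1g at 0.82, Eef1a1 and Eef1g at 0.82, Eef1a2 and Eef2 at 0.81 and Eef1a1 and Eef2 at 0.78, whereas Eef1a1 and Eef1a2 had 0.57. Eef2k had 0.20 with Eef2 and −0.58 with Eef1d. Group means share their experiment or fraction, so these values only describe the 14 groups.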

How the data were processed

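The authors trimmed reads, removed molecular identifiers, aligned to mm10 with Rsubread and deposited, per library, counts of footprint 5′ ends (alignments of at least 25 nt, no offset) in CDS and 5′ UTR exon segments of UCSC known genes, made with plastid. Marks for removed ribosomal RNA and duplicates appear in the file headers, but how duplicates and reads with several matches were treated is not given in the sources used here. The deposited RPKM column is the same count scaled to length and library total (largest relative deviation 4.99e-09) and entered no test.

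Segments were summed per transcript, the longest coding transcript was kept per gene, and 66750 of 67238 transcripts (99.3%) matched a GENCODE symbol. CDS and 5′ UTR counts were tested in edgeR 4.0.16 (R 4.3.3) by quasi-likelihood with TMM scaling, filterByExpr and Benjamini-Hochberg adjustment over all genes tested. A single fit held the 24 libraries of the KCl experiment, with group means and no covariate, and separate fits held the DHPG and knockdown libraries. Libraries of the same replicate and condition were taken as independent although they deviated together, so p-values for inputs of both ligases overstate the replication. A block for the replicate within a condition was not tried. The study names the likelihood ratio test of edgeR, which was an alternative, as were DESeq2 1.42.0, RLE size factors, no TMM, no filter, the transcript with the highest count, removal of a CDS length trend, the replicate block and leaving out replicates. Inputs of both ligases were averaged. The test of 5′ against 3′ counts (mean of at least 20 on each side) and its alternatives were chosen after the data were seen. Scripts were tested on simulated counts. Sums, exact permutation tests and windows used Python 3.11.15, pandas 2.3.3, numpy 2.4.6 and SciPy 1.17.1.

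Named were all 7 members, from each pathway list the gene with the smallest p among those that passed (KCl inputs, KCl TurboID-PSD95 pulldowns and knockdown KCl inputs), the 3 genes most like Eef1a1, Eef1a2, Eef2 and Eef2k, and Eif4g2, Dlg4 and Arc as checks. Members and lists were chosen with earlier results of these data known. According to the study's methods, samples of a biological replicate were processed together. Replicate numbers were therefore taken to pair libraries within each experiment, but not DHPG or knockdown libraries with those of the KCl experiment. In the KCl experiment, deviations of same-numbered libraries from group means correlated at −0.30 to 0.71 over 28 pairs of groups, and all were over 0.1 in 12. These 12 each joined groups of the same condition. Every pair of a resting with a depolarized group held a negative value, for example −0.22 to 0.16 for TurboID-PSD95 inputs. The counts thus did not show a pairing of rest with KCl by number. No replicates were duplicates by counts: chi-square per degree of freedom was 1.497 to 53.2 over 34 pairs. It was 1.497 to 1.97 between DHPG inputs, 2.95 to 9.64 between DHPG pulldowns and 2.85 to 4.94 between knockdown replicates. In the KCl experiment it was 9.22 to 53.2. Small standard errors and large shares of genes called within DHPG or knockdown libraries go with this narrower spread. Comparisons against rest share the resting libraries.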

Additional observations from a re-analysis of the deposited data

How the results depend on the processing

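Of the counts of members past the threshold and the isoform ratios, 362 values under alternatives kept their side or size, 30 were weaker and 15 stronger, and 0 reversed. The cause was not tested. The replicate number as a block pairs the libraries of the KCl experiment, although the counts showed this pairing only within a condition. With it, 5 members passed in KCl inputs and 5 in KCl TurboID-PSD95 pulldowns. It gave 2 in TurboID-PSD95 pulldowns over inputs after KCl and 2 in Pan-TurboID pulldowns over input. For 5′ against 3′ counts the block gave 2 members in either KCl pulldown. Within the DHPG and within the knockdown libraries, which share cultures or processing by number too, deviations correlated at −0.20 to 0.06 and −0.01 to 0.06, and the block changed no call of a member. Between experiments the number is only a number, and the block gave 2 members for 5′ UTRs in DHPG inputs. DESeq2 gave 5 in KCl TurboID-PSD95 pulldowns and, like the likelihood ratio test, 2 in TurboID-PSD95 pulldowns over inputs after KCl. The likelihood ratio test and the outer parts of the CDS each gave 2 for 5′ against 3′ counts in TurboID-PSD95 pulldowns, and the outer parts 1 in DHPG inputs. Removing the length trend left 1 in resting pulldowns over inputs. In 5′ UTRs after DHPG, RLE size factors gave 0 in both fractions and no TMM 2 in inputs. Leaving out a replicate gave 0 to 4 members in TurboID-PSD95 pulldowns over inputs at rest, 0 to 1 after KCl, 3 to 5 in DHPG pulldowns, 0 to 1 and 0 for 5′ UTRs in DHPG inputs and pulldowns, and 0 to 1 for the difference in KCl response with knockdown in pulldowns. For 5′ against 3′ counts it gave 2 to 5 in KCl inputs, 0 to 3 and 0 in TurboID-PSD95 and Pan-TurboID pulldowns after KCl, 0 to 2 in pulldowns over inputs at rest, 1 to 2 in DHPG inputs, 3 to 4 in DHPG pulldowns and 1 to 2 in knockdown KCl pulldowns. Of values for single members, 2547 kept their side, 97 were weaker, 41 stronger and 3 reversed: Eef2 in knockdown pulldowns over input without the length trend (−0.42), and Eef1a1 with the outer parts of the CDS in DHPG inputs (−0.045) and DHPG pulldowns (−0.81). Depth limits Eef2k, with as few as 43 CDS counts in a library, and the 5′ UTR of Eef1g, with at most 34.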
